A study of Mus musculus with 6 samples.

Results

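Reads matching LINE-1 (L1) retrotransposons were compared between 2 small RNA libraries of mouse E14 embryonic stem cells (ESCs) depleted of TET2 (shTet2) and 2 libraries of the same cells carrying a non-targeting shRNA (shScr). Reads placed in 3 L1 copies were dropped, because most reads there come from inserts that are not L1. These copies lie on chromosome 13 (an L1Md_T copy starting at 9831267 in mm9, 241324 reads) and on chromosome 1 (L1Md_F2 copies starting at 46127905 and 102073553, with 38291 and 8916 reads). The 4 libraries kept 69930 reads, out of 393511 reads listed in the 6 libraries of the series. Both groups were E14 cells of 129/Ola background, grown without feeders on gelatin with serum and 1000 U/ml LIF. All of them, controls included, were infected with a pLKO.1 lentivirus carrying 1 shRNA, selected with 1 µg/ml puromycin from 24 h after infection and collected after 3 days, as the labels state; the methods of the study give a higher puromycin dose and a wider range of days. One hairpin stands for each condition. The files list L1 reads only, so the Tet2 transcript and markers of ESCs could not be examined. The labels do not say whether 2 replicates are separate cultures, so every p-value measures the spread between these libraries, which may be technical.

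TET enzymes oxidise 5-methylcytosine as a step of active DNA demethylation, and TET1 and TET2 are the members expressed in ESCs. A full-length L1 carries its promoter in the 5′ untranslated region, which in the L1Md_T, L1Md_A, L1Md_Gf and L1Md_F classes holds tandem monomers, followed by ORF1, an RNA-binding protein, and ORF2, which encodes the endonuclease and reverse transcriptase. L1Md_T, L1Md_A and L1Md_Gf hold the mobile copies of the mouse genome. Small RNAs against L1 include Dicer-made siRNAs and the longer piRNAs of the germ line, which often begin with uridine and are amplified in sense and antisense pairs.

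The remaining reads numbered 24135 and 22435 in the shScr libraries, and 17888 and 5472 in the shTet2 libraries (replicates 1 and 2, the order used throughout). They made up between 15.7% and 25.8% of the listed reads. In these libraries 3 reads correspond to shares between 0.0124% and 0.0548%, a floor that covers counting error only. The mean number of remaining reads was lower in shTet2 by 1.00 on the log2 scale, but the totals were not scaled to a library size, and less RNA per cell, fewer cells and shallower sequencing cannot be told apart. All comparisons below therefore use shares of the remaining reads. With 2 libraries against 2, the exact two-sided permutation test cannot give p below 0.333, which is also what it gives for any value whose groups do not overlap. Of 17 summary values tested this way, 9 did not overlap between groups (52.9%), and the smallest adjusted p was 0.630 (Benjamini-Hochberg over 17, exact permutation test).

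A set of 18-nt molecules that was abundant in shTet2 replicate 1 is shown here, with capitals marking bases that differ from the matching stretch at the start of 18S ribosomal RNA. That stretch lies at chr17:39983298-39983315 on the plus strand of mm9, in no annotated gene and 1733 bp from AY036118 (ENSMUSG00000045999.8).
18S start: tacctggttgatcctgcc
read A: tacAtggttgatcctgcA
read B: tacAAggttgatcctgcc
read C: tacAAggttgatccAgcc
read D: tacAtggttgatcctgcc
Read A differs from the 18S stretch by C4A and C18A, with the genome base first and positions counted from 1 at the 5′ end of the read. All 931 reads with this sequence were placed at chr19:14189311-14189328 on the minus strand, antisense to an L1Md_F copy and 4080 bp from its 5′ end, where the genome differs from the read by A5T only. The genome sequence there, with the differing base in capitals, is the following.
L1Md_F copy, chromosome 19: tacaAggttgatcctgca
Read B matched 17 places of the genome exactly, 11 of them in listed L1 copies. Reads C and D, like read A, had no exact match in the genome and 1 mismatch at their listed L1 places.

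All remaining reads of 15 to 20 nt within 3 mismatches of read A were grouped as the 18-nt family. This grouping was made by sequence alone and after the data had been seen. The family held 4459 reads of 153 sequences in 130 copies; 87.1% of them were 18 nt long and 87.9% lay between 3 and 5 kb from the 5′ end of a copy. At their listed L1 places 20.4% had no mismatch and 79.6% had 1. Compared base by base, 71.9% of the family's reads were nearer to the listed L1 place than to the 18S stretch, 28.1% were equally near and none was nearer to the 18S stretch. Reads were listed at their best place in a genome that holds the 18S stretch, so reads nearer to it would have been placed there, and the absence of such reads follows from how the reads were listed. Whether the molecules are L1 or ribosomal RNA fragments was not tested.

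The family made up 3.63% and 3.56% of the remaining reads in shScr, and 14.6% and 3.25% in shTet2. Only shTet2 replicate 1 was high; shTet2 replicate 2 lay below both shScr libraries. About the same held for read A, at 0.617% and 0.829% in shScr against 3.17% and 0.530% in shTet2, a log2 fold change of 0.84 (SE 1.05, limma adjusted p = 0.790). Reads B to D followed this order too, but not every member did. A 17-nt member that differs from the 18S stretch by C17T was higher in both shTet2 libraries. It made up 0.137% and 0.232% in shScr against 0.470% and 0.457% in shTet2, and was chosen after its values were seen. In the shTet1 libraries, which are outside the comparison, the family held 6.70% and 2.66%. Between 97.75% and 98.96% of its reads in the 4 libraries were antisense to the L1 copy, so that it accounted for 12.99% and 12.63% of all antisense reads in shScr and for 42.2% and 10.6% in shTet2. Counting every position, strand and length a single time (counted once), it held 115 and 120 entries in shScr against 159 and 59 in shTet2, or 0.547% and 0.612% against 1.19% and 1.18%. The share was higher still in the shTet1 libraries (1.95% and 1.32%), which have the fewest reads. It was nearly equal in the 2 shTet2 libraries, which have 17888 and 5472 remaining reads. Whether this share follows depth was not tested. Main results below are given with and without the family.

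Outside the family, sense reads that share a 3′ end, mostly in the L1Md_A class, were lower in both shTet2 libraries. They are shown because they differ at the 5′ end and stop at the same base. Capitals mark the shared last 15 nt in the 3 most frequent reads of at most 30 nt.
22 nt: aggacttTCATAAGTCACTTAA
23 nt: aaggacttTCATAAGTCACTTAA
26 nt: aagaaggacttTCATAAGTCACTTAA
In the genome the shared end was followed most often, in 466 of 872 copies looked at, by the bases in capitals.
genome (mm9): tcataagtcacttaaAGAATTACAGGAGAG
The 4 libraries held 1089 reads with this end, of 156 sequences between 15 and 63 nt long, spread over 901 copies. All were sense, 79.3% lay in L1Md_A copies and 97.9% had no mismatch. The median distance of the 3′ end from the 5′ end of the copy was 902 bp. They numbered 597 and 389 in shScr and 61 and 42 in shTet2, of which 595 and 387 against 61 and 42 remained when counted once. Because reads with several equally good places were put at 1 of them at random, repeats of a molecule can lie in different copies, and counting once cannot remove those. As shares of the remaining reads they were 2.47% and 1.73% in shScr (2.104% ± 0.523, SD, n = 2) and 0.341% and 0.768% in shTet2 (0.554% ± 0.302, SD, n = 2), and the shScr mean was 3.80 times the shTet2 mean. The groups did not overlap. The shTet1 libraries, outside the comparison, held 0.493% and 1.17%, also below both shScr libraries.

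The gap was present within length windows. Among reads of 21 to 32 nt the shared end was found in 2.64% and 1.96% in shScr against 0.386% and 0.829% in shTet2, and among reads of 33 nt or more in 4.01% and 3.09% against 1.06% and 1.45%. These reads were chosen after their values were seen, so that the values are a description with no test. In the fit over single sequences, 11 with this end were tested and none passed (smallest limma adjusted p = 0.454). Without them the L1Md_A shares were 30.4% and 29.2% in shScr against 27.7% and 28.9% in shTet2, and the 5′ shares 31.8% and 33.2% against 34.5% and 33.6%, both still apart.

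Of the 8 shared ends with most reads outside the family, 2 others were also lower in both shTet2 libraries, shown here as the shared 15 bases. Among all 26 ends with at least 100 reads, 9 were lower in both shTet2 libraries (34.6%) and 0 were higher, so being lower does not set these ends apart. The shScr libraries hold most of the reads, so an end that is high in shScr is more likely to be among the most frequent, and no direction over the ends is drawn from their number.
end near 1.2 kb: gcaacagaatacaag
end near 1.6 kb: ggacagatgttatac
The first, 74.1% of whose 587 reads lay in L1Md_T, made up 1.08% and 0.771% in shScr against 0.704% and 0.512% in shTet2. The second, with 468 reads in 459 copies, made up 1.15% and 0.606% against 0.168% and 0.457%. By contrast, the second most frequent end of all, in the 3′ part of the element at a median of 4905.5 bp, overlapped, at 1.77% and 0.869% against 2.22% and 0.475%.

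**Figure D1:**
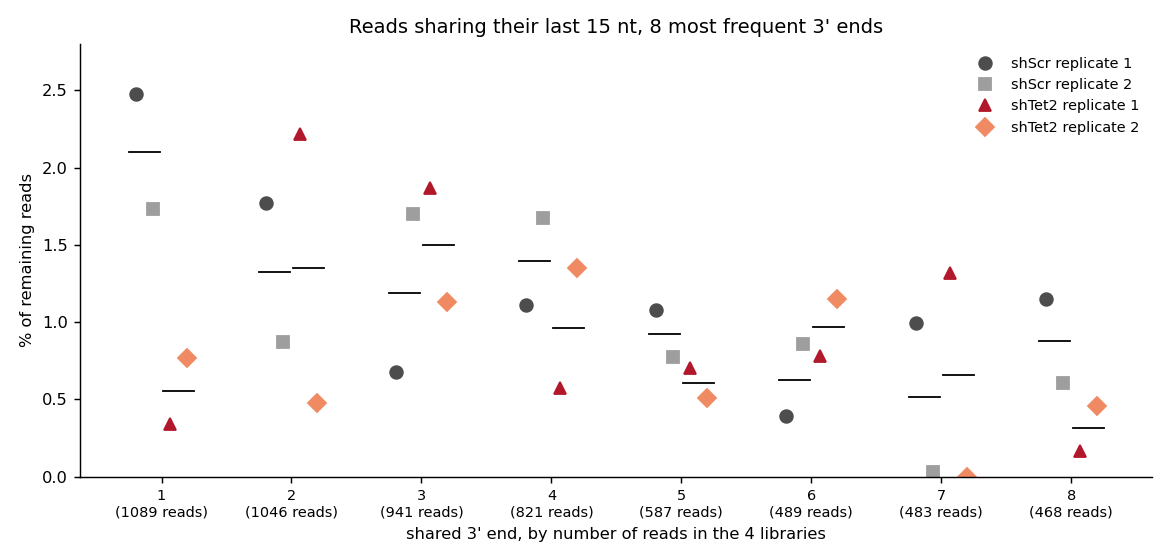
Share of the remaining reads (y axis, %) that end in each of the 8 most frequent 3′ ends outside the 18-nt family (x axis, ends ordered by their number of reads), per library (points) with group means (bars, n = 2). End 1, the L1Md_A end, stands at 2.47% and 1.73% in shScr and 0.341% and 0.768% in shTet2; ends 5 and 8 are also lower in both shTet2 libraries.

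Antisense reads formed a larger share in shTet2 when all reads were used. They were 27.5% and 27.8% in shScr (27.6% ± 0.232, SD, n = 2) and 34.2% and 29.99% in shTet2 (32.1% ± 2.97, SD, n = 2), a difference of 4.47 percentage points (exact permutation p = 0.333) that was 2.37 without shTet2 replicate 1 and 6.58 without shTet2 replicate 2. Both shTet2 libraries lay above both shScr libraries. Without the 18-nt family the shares were 24.8% and 25.2% against 23.2% and 27.7%, and the difference was 0.45 points with shTet2 on both sides of shScr. Counted once, they were 24.2% and 25.9% against 22.9% and 28.9%, a difference of 0.87 points. The groups also overlapped with both steps together.

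**Figure D2:**
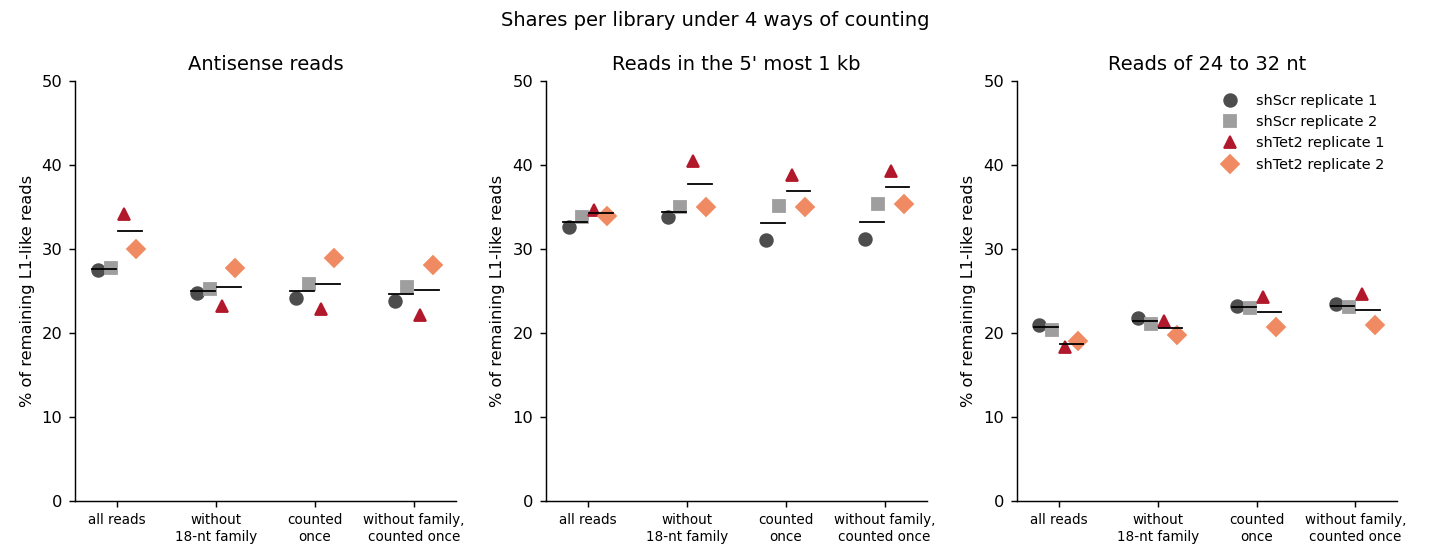
Share of the remaining L1-like reads that were antisense, lay in the 5′ most 1 kb of the copy or were 24 to 32 nt long (y axes, %), for each library (points) with group means (bars, n = 2), under 4 ways of counting. The antisense share separates the groups only with all reads, at 27.5% and 27.8% in shScr and 34.2% and 29.99% in shTet2.

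Reads from the 5′ end of L1, where the promoter lies, formed a slightly larger share in shTet2. The difference of the means grew once the 18-nt family was left out, through shTet2 replicate 1, and the groups then overlapped. Within 1 kb of the 5′ end of a copy lay 32.6% and 33.8% of the remaining reads in shScr (33.2% ± 0.866, SD, n = 2) against 34.6% and 33.9% in shTet2 (34.3% ± 0.527, SD, n = 2). The difference was 1.08 points (exact permutation p = 0.333; 0.463 without shScr replicate 1, 1.69 without shScr replicate 2 and 0.703 without shTet2 replicate 1), and the closest libraries, shScr replicate 2 and shTet2 replicate 2, were nearly equal. Without the family the shares were 33.8% and 35.0% against 40.5% and 35.0%, a difference of 3.36 points with shTet2 replicate 2 just below shScr replicate 2. Counted once, they were 31.04% and 35.13% against 38.9% and 35.0%, and with both steps 31.2% and 35.3% against 39.3% and 35.4%. In each of these versions shTet2 replicate 1 stood above the other libraries, and shTet2 replicate 2 was close to shScr replicate 2. Among reads of 18 to 32 nt the groups overlapped, at 32.8% and 39.3% against 32.04% and 41.69%. In the shTet1 libraries, outside the comparison, sense reads of the 5′ most 1 kb were 29.2% and 25.6% of all remaining reads and antisense reads 11.8% and 11.2%. In shScr the sense reads were 23.5% and 23.7% and the antisense reads 9.07% and 10.1%, so the 5′ share was higher in shTet1 as well.

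By class, L1Md_T was the one of 7 class groups in which the 5′ share was higher in both shTet2 libraries with all reads (14.3% of the groups). In L1Md_T, the class with most reads, 33.5% and 36.3% of reads lay in the 5′ most 1 kb in shScr and 37.8% and 38.3% in shTet2, a difference of 3.16 points (exact permutation p = 0.333). The groups did not overlap in any of the 4 ways of counting, and counted once the values were 31.5% and 37.4% against 40.3% and 39.5%. The 2 shScr libraries were then farther apart from each other than shScr replicate 2 was from either shTet2 library. L1Md_F also separated once the family was left out, at 20.8% and 17.9% in shScr against 25.4% and 27.8% in shTet2. In shTet2 replicate 2 this class held 94 reads, 61.7% of them in the family, so few reads carry that value. L1Md_A did not, at 37.3% and 42.7% against 46.4% and 41.2% with all reads. In all other classes together the share was lower in shTet2, at 24.9% and 24.0% against 20.8% and 20.7%, but counted once it overlapped, at 18.8% and 18.6% against 21.7% and 18.2%. With the family left out and each position counted once, 4 of the 7 class groups were higher in both shTet2 libraries (57.1%).

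**Figure D3:**
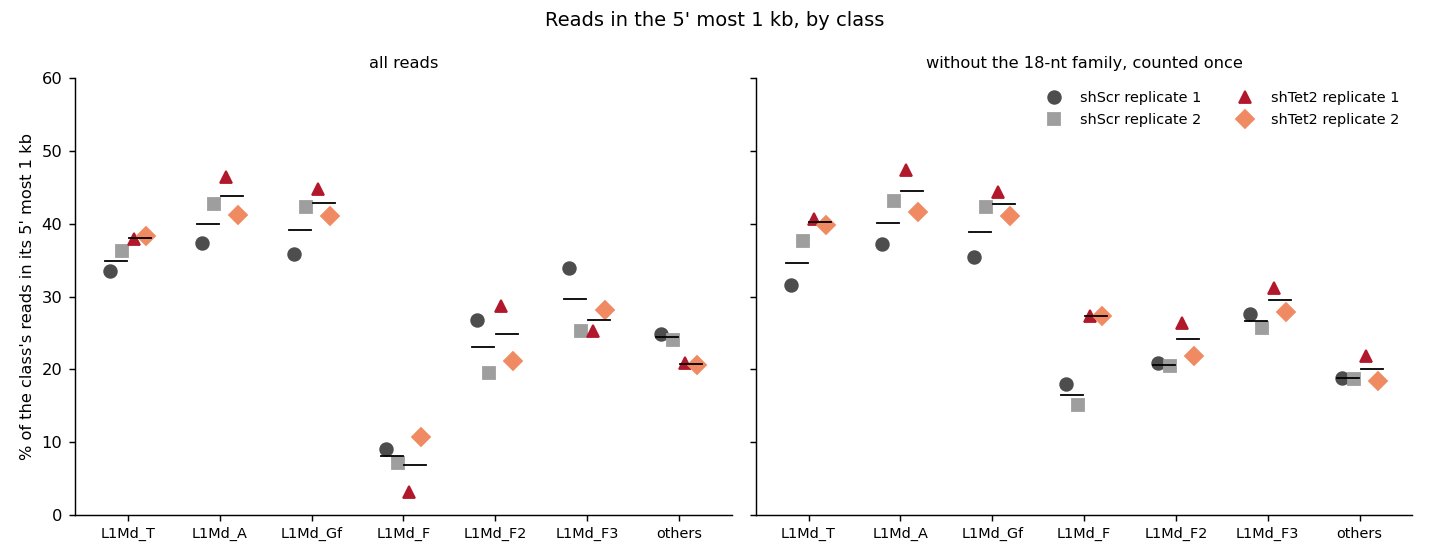
Share of each class's reads that lay in the 5′ most 1 kb of its copies (y axis, %), per library (points) with group means (bars, n = 2), with all reads (left) and without the 18-nt family and counted once (right). L1Md_T is higher in both shTet2 libraries in both panels, while shScr replicate 2 lies nearer to shTet2 than to shScr replicate 1 on the right.

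Steps of 250 bp over the first 2 kb of L1Md_T, taken by strand, did not overlap between groups in 5 of 16 cases with all reads (31.2%), 2 higher and 3 lower in shTet2, and in 5 of 16 counted once (31.2%), 3 higher and 2 lower. The steps given here were chosen after their values were seen. Within the first 250 bp, antisense reads were 3.62% and 5.43% of the class in shScr and 5.46% and 6.64% in shTet2, and the order of the groups was kept when counted once (3.90% and 5.80% against 6.63% and 7.01%). Sense reads between 250 and 500 bp were 7.20% and 4.63% in shScr against 10.01% and 6.02% in shTet2, which overlap. Counted once they were 4.46% and 5.08% against 6.48% and 6.45%, which do not. Sense reads between 500 and 750 bp were lower in shTet2 with all reads, at 5.72% and 6.20% against 4.31% and 5.41%, and overlapped counted once, at 5.11% and 4.77% against 4.87% and 4.42%.

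Along the rest of the element, the sense reads between 1 and 2 kb were lower in shTet2, at 14.4% and 13.1% of the remaining reads in shScr against 9.89% and 12.8% in shTet2. This stretch holds the median place of the ORF1 primer site in L1Md_T, 1287 bp from the 5′ end. The groups stayed apart without the family (14.9% and 13.6% against 11.4% and 13.2%) and counted once (15.78% and 14.04% against 12.4% and 13.5%), but in each version shTet2 replicate 2 was closer to shScr replicate 2 than the shScr libraries were to each other. Antisense reads between 4 and 5 kb, upstream of the median ORF2 primer site at 5318 bp in L1Md_T, were 4.82% and 4.84% in shScr against 12.8% and 4.57% in shTet2. Without the family these became 2.21% and 2.23% against 2.21% and 2.63%.

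**Figure D4:**
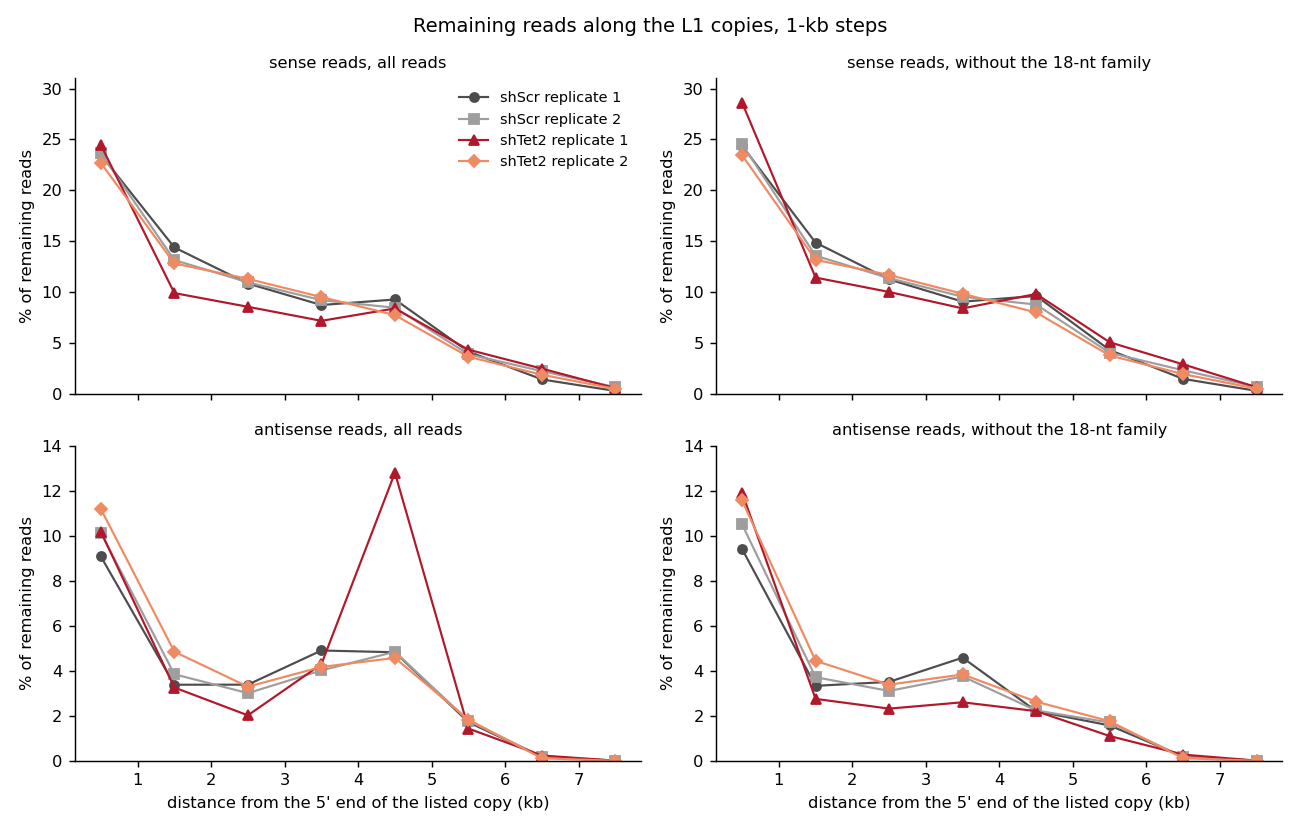
Remaining reads per 1-kb step from the 5′ end of the listed copy (x axis, kb), sense (top) and antisense (bottom), as % of the library's remaining reads (y axis), 1 line per library, with all reads (left) and without the 18-nt family (right). The antisense peak of 12.8% at 4 to 5 kb in shTet2 replicate 1 falls to 2.21% without the family.

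When reads were divided by class group, 1-kb step and strand, no bin passed an adjusted p of 0.05 in limma, out of 80 tested (0%); 4 bins had an unadjusted p below 0.05. Groups did not overlap in 21 of the 80 bins (26.2%). The bin with the smallest p was antisense L1Md_T between 6 and 7 kb, with 17 and 20 reads in shScr and 3 and 1 in shTet2, a log2 fold change of -1.81 (SE 0.41, limma adjusted p = 0.102). Its shTet2 reads are at or below the floor of 3 reads, and the ratio of the pooled shares, shTet2 to shScr, was 0.216 (exact 95% interval 0.0558 to 0.5999, counting error only). Counted once, that bin was the only one of 79 that passed (1.27%; log2 fold change -1.73, limma adjusted p = 0.0277). Next came sense L1Md_F between 2 and 3 kb, with 29 and 25 reads against 10 and 2, and antisense L1Md_F between 1 and 2 kb, with 21 and 15 reads against 9 and 0 (limma adjusted p = 0.498 for both). The antisense L1Md_T and antisense L1Md_F bins reached the filter of 10 reads in at least 2 libraries only through shScr, where they are high. Their tests, the pass counted once included, therefore give no support for a difference.

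Among L1 classes, none of 21 tested passed an adjusted p of 0.05 in limma (0%), 3 had an unadjusted p below 0.05, and 9 did not overlap between groups (42.9%). L1Md_T made up 39.5% and 40.0% of the remaining reads in shScr and 36.7% and 38.5% in shTet2, a log2 fold change of -0.10 (SE 0.04, limma adjusted p = 0.317). L1Md_A was 31.7% and 30.1% against 27.8% and 29.3%, a log2 fold change of -0.14 (SE 0.05, limma adjusted p = 0.317). Both young classes were thus lower in both shTet2 libraries, and L1Md_T stayed so without the family (39.8% and 40.5% against 38.4% and 38.7%) but overlapped among reads of 18 to 32 nt (38.65% and 41.28% against 34.82% and 40.73%), whereas L1Md_A overlapped without the family (32.64% and 31.02% against 31.7% and 30.1%). The log2 fold changes without the family were -0.06 for L1Md_T and -0.01 for L1Md_A. L1Md_Gf, the third young class, held 0.775% and 0.874% in shScr against 0.799% and 1.02% in shTet2, a log2 fold change of 0.01 (SE 0.25, limma adjusted p = 0.961) that was 0.17 (SE 0.31) without the family.

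L1Md_F2 and L1Md_F3, regarded as older than the mobile classes, were higher in both shTet2 libraries, though neither passed in the fit without a replicate block. L1Md_F3 was 3.81% and 3.42% in shScr and 4.85% and 4.35% in shTet2, a log2 fold change of 0.37 (SE 0.17, limma adjusted p = 0.356) that was 0.19 (SE 0.23) without the family, and the groups stayed apart without the family (3.55% and 3.10% against 3.67% and 3.99%) and counted once (3.24% and 3.17% against 3.39% and 4.16%). L1Md_F2 was 13.5% and 12.5% against 14.6% and 13.9%, a log2 fold change of 0.15 (SE 0.09, limma adjusted p = 0.467) that was 0.16 (SE 0.10) without the family. L1Md_F was 2.13% and 2.33% against 6.45% and 1.72%, so that 1 library carried its log2 fold change of 0.75 (SE 0.54, limma adjusted p = 0.549). The 18-nt family made up 56.9% and 60.3% of L1Md_F reads in shScr and 87.7% and 61.7% in shTet2, and without it L1Md_F was lower in both shTet2 libraries (0.949% and 0.957% against 0.929% and 0.680%). L1_Mus1 and L1_Mus3, the other classes with most reads, had log2 fold changes of 0.07 (SE 0.25) and -0.10 (SE 0.29, limma adjusted p = 0.853 for both), and both overlapped between groups. Counted once, 3 of 21 classes passed (14.3%), all of them higher in shTet2. These were the older Lx2, Lx2B and Lx5 classes, named here because they were the only ones called, with log2 fold changes of 1.08 (SE 0.32), 0.76 (SE 0.24) and 0.63 (SE 0.20, limma adjusted p = 0.0225 for each). With all reads they were 0.54, 0.83 and 0.28 (limma adjusted p = 0.567, 0.317 and 0.565), and Lx2 overlapped between groups. Lx2 had 48 and 83 reads in shScr against 47 and 32 in shTet2. Of these, 12 and 39 against 9 and 10 were a single 19-nt sequence in 1 copy, a kind of repeat that counting once reduces. Lx2B had 19 and 14 reads in shScr against 30 and 6 in shTet2. A single Lx5 copy on chromosome 3 held 335 of the 479 Lx5 reads.

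Read length separated shTet2 replicate 1 from the other 3 libraries more than it separated the groups. Mean length was 31.1 and 29.4 nt in shScr and 25.57 and 29.996 nt in shTet2, which overlap. Reads of 15 to 20 nt were 29.2% and 35.4% in shScr against 51.4% and 36.1% in shTet2. The shTet1 libraries, outside the comparison, had 53.2% and 34.3%, so shTet1 replicate 1 was as short as shTet2 replicate 1. The shares remained higher in both shTet2 libraries without the family (26.55% and 33.01% against 43.1% and 34.0%) and counted once (22.4% and 29.5% against 38.3% and 31.9%). The shScr libraries differed from each other by more than shTet2 replicate 2 differed from shScr replicate 2. Reads of 18 nt were 6.56% and 9.03% against 18.6% and 8.70%, and without the family 3.569% and 6.401% against 6.27% and 6.82%. Reads of 33 nt or more were 40.6% and 34.2% against 21.1% and 35.2%.

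The length window of siRNAs, 21 to 23 nt, held 9.23% and 10.1% of reads in shScr and 9.20% and 9.59% in shTet2, a difference of -0.26 points within the spread of the libraries. The window of piRNAs, 24 to 32 nt, held 20.9% and 20.4% in shScr against 18.3% and 19.1% in shTet2, a difference of -1.95 points (exact permutation p = 0.333). Without the family the shares were 21.7% and 21.1% against 21.5% and 19.7%, which overlap, as they did when counted once. Of the reads in that window, 22.5% and 24.3% began with U in shScr and 20.98% and 22.13% in shTet2, and this order did not change without the family or when counted once. Sense and antisense reads of 24 to 32 nt whose 5′ ends overlap by 10 nt made up 4.54% and 4.32% of the pairs overlapping by 1 to 20 nt in shScr and 4.39% and 5.80% in shTet2. An overlap of 10 nt ranked 14 and 15 of the 20 lengths in shScr and 14 and 6 in shTet2, so it was not the most frequent overlap in any of the 4 libraries. In shTet2 replicate 2 the share rests on 13 of 224 pairs.

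**Figure D5:**
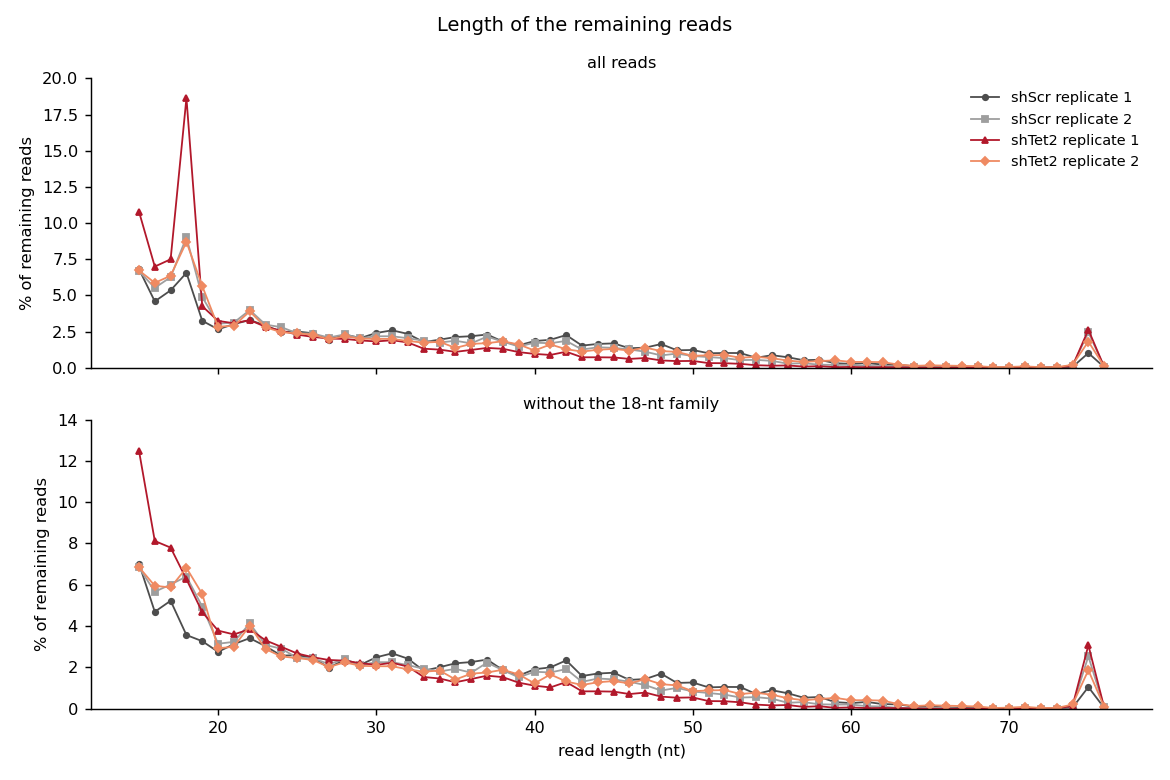
Length of the remaining reads (x axis, nt) as % of the library's remaining reads (y axis), 1 line per library, with all reads (top) and without the 18-nt family (bottom). The 18-nt peak of 18.6% in shTet2 replicate 1 falls to 6.27% without the family, while its reads of 15 nt stay above the other libraries.

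L1Md_Gf, a small class with 187, 196, 143 and 56 reads, had the widest gap in the siRNA length window. Its reads of 21 to 23 nt were 10.7% and 8.67% in shScr and 18.9% and 21.4% in shTet2, and its groups stayed apart in all 4 ways of counting. Of its antisense reads, 49.2% and 56.4% lay in the 5′ most 1 kb in shScr and 72.5% and 65.0% in shTet2, again apart in all 4. These 5′ antisense reads numbered 102 over the 4 libraries, at 0.162% and 0.238% of the remaining reads in shTet2, so few reads carry the shTet2 values. The 4 ways of counting use largely the same reads. Both gaps of L1Md_Gf were singled out after their values were seen, among 63 values of strand, distance and length within class groups, of which 26 did not overlap with all reads (41.3%).

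At the level of copies the reads were thinly spread. Reads fell in 13466 of 13686 listed copies, with a median of 3 reads a copy and 2440 copies with 1 read, and the 10 copies with most reads held 6.28% of the total. No copy passed an adjusted p of 0.05 in limma, out of 89 tested (0%), with 1 copy at an unadjusted p below 0.05, and groups did not overlap in 17 (19.1%). The copy with that unadjusted p was an L1Md_T copy on chromosome 16 (73656977 to 73662488, in no annotated gene). It took 0.174% and 0.285% in shScr against 0.917% and 0.548% in shTet2 (limma adjusted p = 0.696), and 97.3% of its reads belonged to the 18-nt family. The copy with the highest mean share was the L1Md_F copy on chromosome 19 that holds read A (14185248 to 14190394, in no annotated gene). It took 0.936% and 1.13% of the remaining reads in shScr and 4.75% and 0.841% in shTet2, and 99.9% of its reads belonged to the 18-nt family (log2 fold change 0.88, SE 0.91, limma adjusted p = 0.696).

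The second, an L1Md_T copy on chromosome 10 (105524900 to 105531249, in no annotated gene), followed the replicate number and not the shRNA. It took 1.05% and 0.0357% in shScr and 1.46% and 0.0183% in shTet2. Of its reads, 95.4% matched the 10 kb around the 18S stretch on chromosome 17 with at most 2 mismatches and no worse than the L1 copy. Its most frequent read, placed at chr10:105530940-105530956 on the minus strand, is shown with another that behaved alike, with capitals marking the base that differs from the L1 place.
chromosome 10 copy: tccggggctgcacgCgt
L1Md_F2 copies: tctcgcgccgggcCg
The second of these reads was chosen after its values were seen; it made up 1.06% and 0.00891% of reads in shScr and 1.06% and 0.0183% in shTet2. Reads that matched the chromosome 17 stretch in this way were 2.57% and 1.85% of all remaining reads in shScr and 6.42% and 1.75% in shTet2. Without them the antisense shares were 26.9% and 26.99% against 31.8% and 29.2%, and the 5′ shares 32.2% and 34.3% against 35.1% and 34.4%.

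The next copies by mean share, L1Md_T copies on chromosome 6 (56190526 to 56197456, in Pde1c outside its exons) and chromosome 4 (62586188 to 62592885, in no annotated gene), held A-rich reads at their 3′ ends. They took 0.402% and 0.477% against 0.777% and 0.457%, and 0.174% and 0.709% against 0.771% and 0.457%. Reads with at least 80% A were 1.09% and 2.63% of all remaining reads in shScr and 2.84% and 1.92% in shTet2, which overlap. The fifth, an L1Md_T copy on chromosome 6 (18273741 to 18279003, in no annotated gene), held sense reads 596 bp from its 5′ end and took 0.476% and 0.784% against 0.212% and 0.530%. Its log2 fold change of -1.06 (SE 0.67, limma adjusted p = 0.696) did not pass.

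Among single read sequences, none of 70 tested passed an adjusted p of 0.05 in limma (0%), 7 had an unadjusted p below 0.05, and groups did not overlap in 28 (40%). Of the 6 sequences with the highest mean share, 4 were reads A to D. Reads B, C and D were highest in shTet2 replicate 1, at 1.87%, 1.71% and 1.49%, and lowest in shTet2 replicate 2, at 0.347%, 0.201% and 0.219%. The other 2 sequences matched their L1 places without mismatch and were both sense. Each has 25 exact places in the genome, of which 6 and 2 lie in listed L1 copies, so their origin in L1 is not given by the sequence. The names below are those of the class that holds most of their listed reads. The second was placed most often at chr6:18274337-18274353 on the plus strand.
L1_Mus3 read: attactctgagacct
L1Md_T read: caggatcacagaaaaag
The first of them made up 0.369% and 0.825% in shScr and 0.732% and 1.11% in shTet2 (log2 fold change 0.72, SE 0.84, limma adjusted p = 0.790). The second, the main read of the fifth copy above, made up 0.655% and 0.963% in shScr and 0.218% and 0.512% in shTet2 (log2 fold change -1.25, SE 0.85, limma adjusted p = 0.568), lower in both shTet2 libraries. The 16-nt form that lacks its first base overlapped, at 0.389% and 0.664% against 0.347% and 0.822%. All reads with the same last 15 nt overlapped as well, at 1.11% and 1.68% against 0.576% and 1.35%.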

How the data were processed

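Per the labels and the paper's methods, small RNA libraries were made with a NEBNext kit and size-selected on gels. Per the submitters' processing notes, the authors trimmed reads with Trim Galore 0.3.3 and aligned them to mm9 with Bowtie2 2.1.0; reads of 15 nt or more were kept, and reads with several equally good places were put at 1 of them at random, so copies of a class share reads. Between 78.4% and 85.1% of remaining reads were shared with at least 5 other listed copies. In the deposited files each line is 1 read and the L1 copy that holds it; they give no counts or library totals, and how copies were selected is not given in the sources used here. RNA was extracted with either of 2 kits per the labels, not given by sample, whereas the paper's methods name QIAzol for small RNA-seq.

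Reads were tallied per class, copy, read sequence and class, 1-kb step and strand. Features with at least 10 reads in at least 2 of the 4 libraries were tested with limma 3.58.1 (voom, R 4.3.3; library size the total of remaining reads; Benjamini-Hochberg). Shares were tested by exact two-sided permutation. "Counted once" keeps 1 read per library, position, strand and length. On simulated tallies (dispersion 0.05, the 2 most abundant features unchanged) with 20 of 80 bins changed by 1 or 2 on the log2 scale, 32.6% or 94.6% were recovered. With 5 of 21 classes changed, it was 19.5% or 88.6%. For 20 of 89 copies it was 10.1% or 86.3%, and for 15 of 70 sequences 10.5% or 76.5%. At most 6.09% of unchanged features were called. Features such as antisense L1Md_F between 4 and 5 kb in shTet2 (5.68% and 1.13%) and reads A to D spread more between replicates than was simulated. In the main fit the SE was between 0.57 and 2.26 for the 5 named copies and between 0.84 and 1.14 for the 6 named sequences. The recovery does not carry over to such features, and the values for copies and sequences are not the power of those fits. Tables used Python 3.11.15, pandas 2.3.3 and pysam 0.24.0. Named were the 6 L1Md classes and 2 others with most reads, the 5 copies and 6 sequences with the highest mean share, and the 3 bins with the smallest p. The chromosome 16 copy was named for its unadjusted p. Reads sharing their last 15 nt were grouped after seeing the data. The members, lists and lengths were chosen with earlier results of these data known. Genes are from GENCODE M1 on the same build.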

Additional observations from a re-analysis of the deposited data

How the results depend on the processing

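Depth was unequal, since shTet2 replicate 2 had 5472 remaining reads, and 2 libraries a group cannot pass a permutation test. Leaving out each library in turn, the range of calls was 0 to 1 for classes (1, L1Md_F, without shTet2 replicate 2), 0 to 1 for bins (1, antisense L1Md_F at 4 to 5 kb, without shTet2 replicate 2) and 0 to 15 for sequences (15 without shTet2 replicate 1, 4 without shTet2 replicate 2), and 0 for copies; a lone library is then assumed to vary like the others. Counting once called 3 classes and 1 bin. Only shared reads called 2 bins, antisense L1Md_F at 4 to 5 kb (higher) and antisense L1Md_T at 6 to 7 kb (lower). The antisense L1Md_T bin reached the filter through the shScr libraries only. No filter on low counts called 9722 of 44264 sequences, mostly of single reads. The replicate numbers are only shared numbers in the labels. Same-numbered shScr and shTet2 libraries deviated together (correlation 0.597 over classes, 0.625 over sequences), with 2 pairs only. For shScr and shTet1 the correlations were 0.072 over classes and 0.536 over sequences. The fit with the replicate block called 1 class (L1Md_F3, log2 fold change 0.35, limma adjusted p = 0.0235), 0 copies, 1 bin and 3 sequences. Of the 11 tested sequences with the shared L1Md_A 3′ end, 10 had log2 fold changes below 0 without shTet2 replicate 1 and 11 without shTet2 replicate 2. The fit with the block called 2 of the 11, both lower in shTet2. This end was chosen after its values were seen and its sequences share that end, so these directions give no further support.

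Direction turned for some differences; the cause was not tested. The 21 to 23 nt share turned to 0.46 counted once, 0.53 at the read number of the smallest library, 0.035 with shared reads only, 0.62 with the 3 copies kept, and 0.32 and 0.53 without the 18-nt family with all reads and once (-0.69 to 0.17 leaving out a library). The 24 to 32 nt share turned to 2.68 with the 3 copies kept. The 5′ share of antisense reads turned to 6.16 counted once (6.16 at the smallest read number), 6.74 and 7.31 without the family (-5.00 to 2.54 leaving out a library). The L1Md_A share turned to 0.215 with the 3 copies kept, and the L1Md_F share to -0.11 counted once, -0.14 at the smallest read number, -0.15 and -0.20 without the family (-0.51 to 4.23 leaving out a library). Leaving out a library, ranges crossed 0 for L1Md_Gf (-0.025 to 0.20), all other classes (-1.001 to 1.52), read A (-0.19 to 2.45) and reads per distinct position (-0.056 to 0.19), which was -0.86 with the 3 copies kept.

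Of the log2 fold changes, L1Md_A turned to 0.058 and L1_Mus3 to 0.042 with the 3 copies kept; L1Md_F to -0.11 counted once and -0.086 without the family; L1_Mus1 to -0.093 with no filter, -0.10 at 18 to 32 nt, -0.043 with all 6 libraries and -0.10 with the block; L1_Mus3 to 0.13 counted once and 0.0059 with shared reads only; and the chromosome 10 copy to -0.29 with TMM factors, -0.12 with no filter, -5.20e-05 with the block and -0.063 with the 3 copies kept. Leaving out a library, ranges that crossed 0 were -0.071 to 0.32 (L1Md_Gf), -0.37 to 1.54 (L1Md_F), -0.26 to 0.31 (L1_Mus1), -0.36 to 0.16 (L1_Mus3), -0.28 to 2.21, -1.89 to 3.03 and -0.062 to 1.92 (copies on chromosomes 19, 10 and 4), and -0.41 to 2.15, -0.46 to 1.93, -0.88 to 2.14 and -0.80 to 1.91 (reads A, B, C and D). The versions without the 18-nt family were added after seeing the data.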
